A study of Mus musculus with 10 samples.

Results

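The genes described here are those of inhibitory transmission in the mouse retina, the receptors for GABA and glycine with the enzymes, transporters, scaffold and chloride cotransporters that serve them. They were chosen by gene symbol, though with earlier results of these data known. Of 31 listed genes, 30 had a row among the 25905 genes of the table, and Gabra6 is not analysed here. The tested set holds 28 of them, because Gabra5 and Glra4 averaged less than 1 CPM over the libraries. CPM is a read count scaled to the size of its library and not to the length of the gene.

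GABA and glycine are the inhibitory transmitters of the retina, released by amacrine cells and, for GABA, also by horizontal cells. GABA-A, GABA-rho and glycine receptors are chloride channels built from subunits, and GABA-B receptors are pairs of G protein-coupled subunits. The chloride that enters or leaves through these channels depends on cotransporters that pump it out of the cell (KCC2, encoded by Slc12a5) or into it (NKCC1, encoded by Slc12a2). Drugs that act on GABA receptors, those of the rho type among them, alter eye growth in animal models of myopia.

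The 10 retinas were both eyes of 5 wild-type C57BL/6J mice, known as mice 61, 64, 65, 66 and 68, aged 34 days after birth. A −20 dioptre lens, which places the image behind the retina and drives the eye towards myopia, had been fixed over 1 eye per animal on day 24 after birth and kept there for 10 days. The other eye had none. The labels do not say which eye wore the lens, so that no library could be called treated or control. Right retinas were therefore compared with left retinas (5 each), the eyes of a mouse with each other without regard to side, and the mice with each other.

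Low values rise in steps that give the worth of a single count, by which 1 CPM stood for 89.2 to 113.4 counts and the 25905 genes of the table summed to 321661 to 346696 CPM a library. The labelled tissue matched its markers: 7 rod genes summed to 10712 to 12503 CPM and 10 amacrine genes to 212 to 226 CPM. No listed marker in the table was at 0 throughout, those of lens and skeletal muscle included, so that presence alone did not tell tissues apart. Genes of neighbouring tissues were uneven. Lens genes summed to 765 CPM in the right retina of mouse 65 against 6.95 to 107 CPM elsewhere, and skeletal muscle genes to 61.7 CPM in the left retina of mouse 68 against 1.65 to 3.75 CPM elsewhere. The labels also record that part of the reverse reads of the right retina of mouse 64 was corrupted and removed. As these are whole retinas, fewer cells of a type and less RNA per cell cannot be told apart in any value below.

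Levels of different genes were compared as CPM per kilobase of exon, taken over all annotated exons of a gene. Slc12a5 stood highest of the 30 genes at 21.1 ± 1.59 CPM per kilobase (SD over 10 libraries), followed by the rho subunit Gabrr1 at 10.8 ± 0.383 and the GABA transporter Slc6a11 at 9.04 ± 0.647. The lowest was Gabra5 at 0.0676 ± 0.0162. No member was at 0 in any library. For 24 of the 30 the coefficient of variation over the libraries was under 10%, and for 26 the highest library was less than 1.5 times the lowest.

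**Figure D1:**
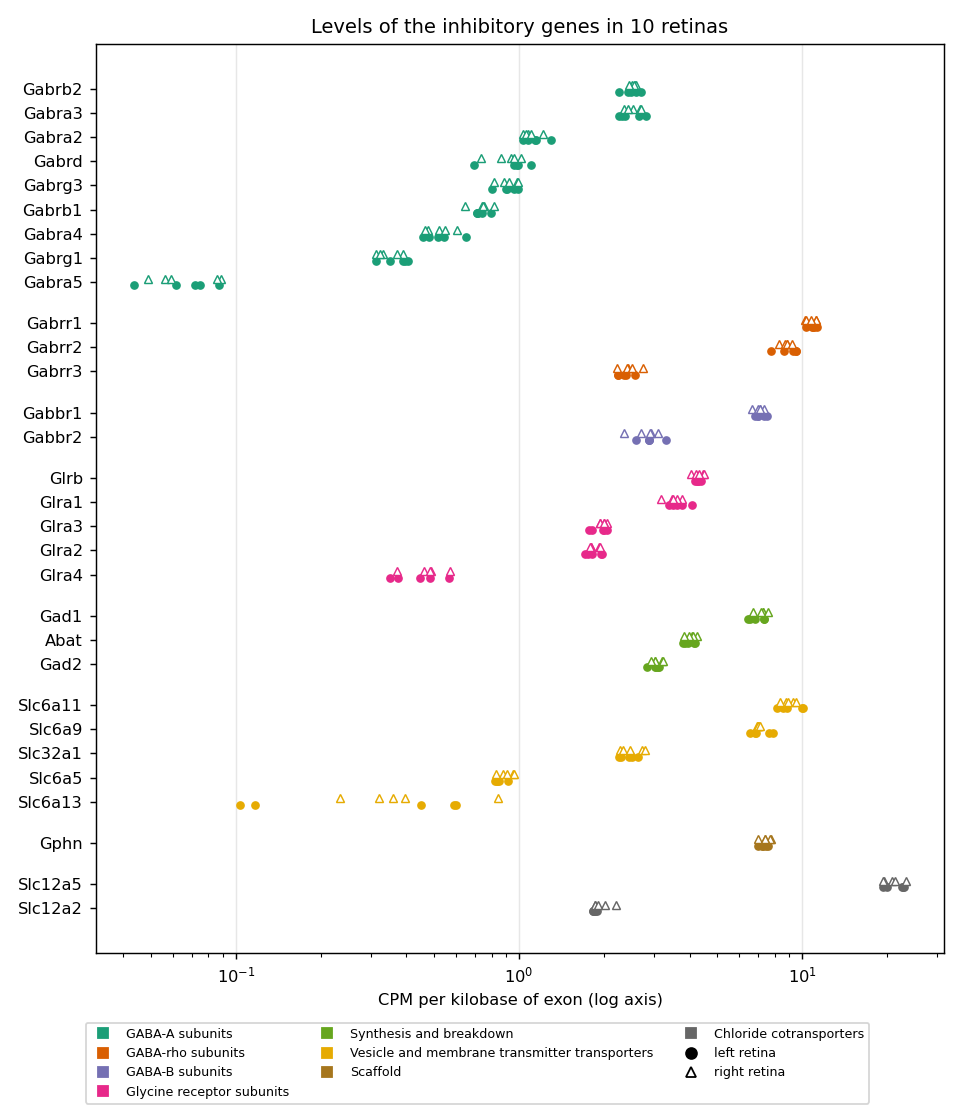
Level of each of the 30 genes in CPM per kilobase of exon (log axis), grouped by role, with 1 filled circle per left retina and 1 open triangle per right retina (5 each). Most genes form tight clusters in which left and right overlap; Slc6a13 spreads from 0.104 to 0.844 CPM per kilobase.

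Among the GABA-A subunits, Gabrb2 (a beta subunit) and Gabra3 (an alpha subunit) were the highest, both at 2.51 CPM per kilobase (SD 0.121 and 0.194). Over the longest annotated transcript they stood at 4.00 and 2.69 CPM per kilobase, so that their order depends on the length used. In the left retinas of mice 61, 64, 65, 66 and 68, the order used for all lists of 5 values below, Gabrb2 measured 15.8, 14.3, 17.2, 16.4 and 15.4 CPM, and in the right retinas 16.0, 16.3, 16.4, 16.2 and 15.5 CPM. The lowest and the highest of these libraries were both left retinas, and the sides overlapped. Gabra2, another alpha subunit, followed at 1.12 ± 0.0834 CPM per kilobase, its libraries all below those of Gabra3. The delta subunit Gabrd, which forms receptors outside the synapse, stood at 0.925 ± 0.126 CPM per kilobase and the gamma subunit Gabrg3 at 0.914 ± 0.0667, and the ranges of neighbours from Gabra2 down to Gabra4 overlapped. Gabrb1 measured 0.737 ± 0.0467, Gabra4 0.526 ± 0.0624 and Gabrg1 0.358 ± 0.0369 CPM per kilobase.

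Gabra5, an alpha subunit known for receptors outside the synapse, lay far below the other 8 GABA-A subunits among the members. Its 10 libraries ranged from 0.130 CPM, about 12 counts with a 95% exact Poisson interval of 0.0674 to 0.228 CPM, to 0.263 CPM, about 28 counts with an interval of 0.175 to 0.381 CPM. These intervals, as all below made from counts, cover counting error only. The counts are approximate, as they are implied by the step, which 90.9% to 91.7% of low values followed. The intervals of the lowest and the highest library overlapped, and the gene was not tested. The GABA-A genes Gabrg1, Gabra2, Gabra4 and Gabrb1, lie in a row on chromosome 5 between bases 70751047 and 72149037 of GRCm38, and the ends of Gabra4 and Gabrb1 share 196 bases on opposite strands. In all, 9 members are overlapped by an annotated gene on the opposite strand, and the sources used here do not say whether the counting used strand.

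The rho subunits form the slow GABA receptors of bipolar cell terminals, and Gabrr1 and Gabrr2 were the most abundant receptor genes of the set per kilobase of all exons. Over the longest transcript Gabbr1, at 10.5 CPM per kilobase, came between Gabrr1 at 10.8 and Gabrr2 at 9.64. Gabrr1 lies on chromosome 4 at bases 33132521 to 33163588 of GRCm38, and Gabrr2 lies beside it at bases 33062999 to 33095865. Gabrr1 measured 24.8, 25.7, 23.6, 25.0 and 25.2 CPM in the left and 23.4, 25.5, 23.5, 25.5 and 24.6 CPM in the right retinas. All 10 libraries were within 1.10-fold of each other. Gabrr2 stood at 8.85 ± 0.559 CPM per kilobase and Gabrr3, on chromosome 16, at 2.41 ± 0.168. Of the summed rho signal per length, Gabrr1 made up 49.0% ± 1.19, Gabrr2 40.1% ± 1.34 and Gabrr3 10.9% ± 0.935 (SD, n = 10), in that order in each library.

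Both GABA-B subunits were well expressed, with Gabbr1, which binds GABA, above its partner Gabbr2, which couples to the G protein. Gabbr1 measured 57.0, 58.1, 54.3, 53.0 and 54.2 CPM in the left retinas and 51.5, 54.9, 54.0, 56.9 and 55.2 CPM in the right. The sides overlapped and the whole range was 1.13-fold. Per length Gabbr1 stood at 7.07 ± 0.254 and Gabbr2 at 2.85 ± 0.260 CPM per kilobase, so that Gabbr1 made up 71.3% ± 1.97 of the pair (SD, n = 10).

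Of the glycine receptor genes, the shared beta subunit Glrb, which ties the receptor to the scaffold, was the highest at 4.29 ± 0.132 CPM per kilobase. Glrb measured 20.0, 19.5, 20.5, 19.8 and 19.9 CPM in the left and 20.8, 20.9, 18.9, 19.6 and 20.1 CPM in the right retinas, the smallest coefficient of variation among the 30 genes (3.08%). The alpha subunits, which bind glycine, followed as Glra1 at 3.59 ± 0.243, Glra3 at 1.95 ± 0.0928, Glra2 at 1.84 ± 0.0907 and Glra4 at 0.460 ± 0.0771 CPM per kilobase. The ranges of Glrb and Glra1 overlapped, as did those of Glra3 and Glra2. Glra1 made up 45.7% ± 2.12 of the 4 alpha subunits, Glra3 24.9% ± 1.48, Glra2 23.5% ± 1.12 and Glra4 5.87% ± 1.00 (SD, n = 10). With the longest annotated transcript as the length these shares were 41.5%, 31.7%, 21.1% and 5.79%.

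Glra4 fell under the filter with libraries between 0.702 and 1.15 CPM. Both retinas of mouse 61 gave its highest values, 1.14 and 1.15 CPM, about 107 and 103 counts, and the left retina of mouse 68 gave the lowest, about 66 counts with a 95% exact Poisson interval of 0.545 to 0.897 CPM. That interval lies below those of both retinas of mouse 61, which start at 0.930 and 0.940 CPM.

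Both enzymes that make GABA from glutamate were present. Gad1 stood at 7.04 ± 0.387 CPM per kilobase and Gad2 at 3.05 ± 0.117, and Abat, the transaminase that breaks GABA down, at 4.02 ± 0.162. Gad1 measured 56.0, 52.1, 49.1, 49.9 and 56.1 CPM in the left and 55.4, 51.3, 55.6, 57.7 and 54.7 CPM in the right retinas. Mice 65 and 66 had the lower left values and the higher right values of the set, while the other 3 mice differed little between eyes. Gad1 made up 69.7% ± 1.53 of both synthetic enzymes over all exons and 83.7% ± 0.989 over the longest transcript (SD, n = 10), and by the latter length Gad1 moved from rank 8 to rank 2 of the 30 genes. A Gad1 pseudogene, Gad1-ps, was listed at 2.45 to 3.68 CPM, and the sources used here do not say how reads were divided between the copies.

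The transporters cover the loading of vesicles and the clearance of transmitter. Slc6a11 (GAT3), which takes GABA up into glia and neurons, was the highest of them. In the left retinas Slc6a11 measured 50.8, 50.4, 41.2, 43.2 and 44.7 CPM and in the right retinas 46.8, 44.4, 44.9, 47.9 and 42.3 CPM. Slc6a9 (GlyT1), the other main clearance transporter of the set and the one for glycine, stood at 7.08 ± 0.402 CPM per kilobase. It made up 88.9% ± 0.849 of both glycine transporters (SD, n = 10), with Slc6a5 (GlyT2), the neuronal form, at 0.879 ± 0.0513 CPM per kilobase. The vesicular transporter Slc32a1, which loads both GABA and glycine, measured 2.47 ± 0.192 CPM per kilobase.

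Slc6a5 was measured at 6.12, 5.92, 6.03, 6.02 and 6.58 CPM in the left and 6.33, 5.97, 6.86, 6.89 and 6.55 CPM in the right retinas. Mice 65 and 66 gave its highest right values, and the sides overlapped. Gphn, which encodes gephyrin, the scaffold under glycine and many GABA-A receptors, measured 27.3, 27.1, 27.9, 26.2 and 28.5 CPM in the left and 29.0, 26.2, 28.9, 27.7 and 27.6 CPM in the right retinas. Its range over all libraries was 1.11-fold.

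The chloride exporter gene Slc12a5 exceeded the importer gene Slc12a2 in every library, making up 91.7% ± 0.748 of the pair per length (SD, n = 10; 89.1% ± 0.957 over the longest transcript). Slc12a2, at 1.91 ± 0.117 CPM per kilobase, measured 20.2, 20.0, 19.9, 20.3 and 20.6 CPM in the left and 24.0, 20.2, 21.9, 20.3 and 20.7 CPM in the right retinas. The right retinas of mice 61 and 65 stood above the other 8 libraries, which lay between 19.9 and 20.7 CPM. Slc12a5 is given with the comparison of fellow eyes.

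The first comparison asked whether the genes differed between right and left. None of the 28 tested members passed limma's test over all genes (two-sided, mouse as a block, Benjamini-Hochberg adjustment over 14210 genes, threshold 0.05; adjusted p = 0.9996 for each). Over all genes the share called was 0%. At an unadjusted p under 0.05 there were 333 genes (2.34%) and no member. No member was higher on the right in 5 of 5 mice (395 genes, 2.78%), none lower in 5 of 5 (286 genes, 2.01%), and for none did left and right libraries stand apart without overlap (41 genes, 0.289%).

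The members' differences were small and of both signs. On the log2(CPM + 1) scale, which understates the change of weakly expressed genes, 16 members were higher and 12 lower on the right, with a median difference of 0.009 against 0.002 over all tested genes. Each of the 28 intervals of the difference spanned 0. Apart from Slc6a13, the 95% intervals ran between −0.26 and 0.20 log2 units, that is between 0.836-fold and 1.15-fold in CPM + 1, and standard errors were 0.04 to 0.10. For 12 members the interval lay within 0.15 log2 units of 0, or 1.11-fold in CPM + 1.

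The receptor genes gave no larger difference than the others. Slc12a2, Gad1 and Slc6a5 came nearest to the threshold before adjustment. Slc12a2 was higher on the right by 0.08 log2 units (SE 0.05, 95% interval −0.03 to 0.18). The sign was positive in 4 of 5 mice, but the difference was set by mice 61 (0.24) and 65 (0.13). Mice 64, 66 and 68 gave 0.02, 0.00 and 0.00. Gad1 differed by 0.06 (SE 0.05, interval −0.04 to 0.16), and Slc6a5 by 0.08 (SE 0.06, interval −0.05 to 0.20). Both rested on mice 65 and 66, which gave 0.18 and 0.21 for Gad1 and 0.16 and 0.17 for Slc6a5, while the other mice lay between −0.04 and 0.04. Among receptor subunits the largest mean difference was that of Gabrg1 (−0.07, interval −0.24 to 0.09), followed by Glra1 and Gabbr2 (both −0.06) and Gabrr3 (0.06, interval −0.07 to 0.19).

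**Figure D2:**
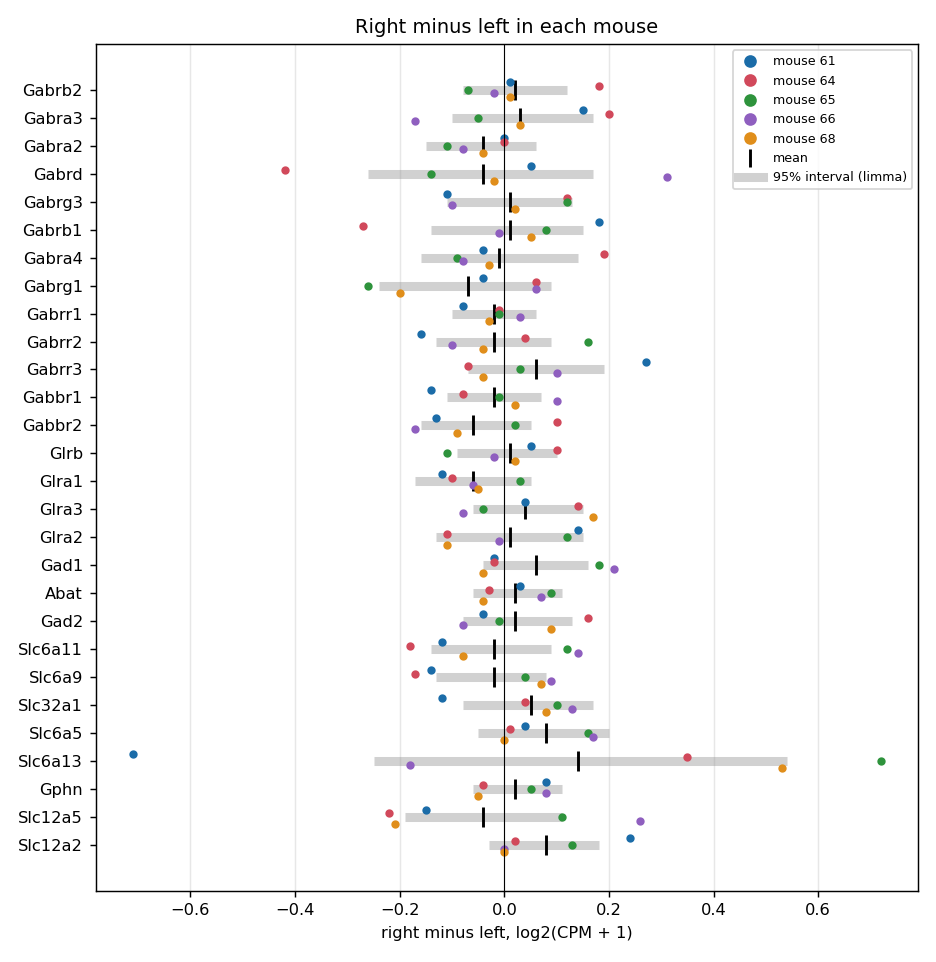
Right minus left of the 28 tested genes on the log2(CPM + 1) scale, with 1 point per mouse, the mean as a black bar and limma's 95% interval in grey. Every interval spans 0, and only the points of Slc6a13 reach beyond 0.5 on either side.

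The mice did not share a direction. Members higher on the right numbered 13, 15, 17, 13 and 12 of 28 in mice 61, 64, 65, 66 and 68. Over all tested genes the shares were 38.0%, 44.1%, 62.7%, 60.4% and 47.1%, against 46.4%, 53.6%, 60.7%, 46.4% and 42.9% of the members. The member medians stayed between −0.026 (mouse 61) and 0.036 (mouse 65) log2 units.

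Ratios within families were compared between the sides as a second measure that does not depend on the library total. The 5 ratios, taken per length, were tested with an exact two-sided sign-flip test over the 5 mice, which cannot go below p = 0.0625. The ratio of Slc12a5 to Slc12a2 was 11.6 ± 0.897 on the left and 10.7 ± 1.15 on the right (SD, n = 5 each; exact p = 0.375), lower on the right in 4 of 5 mice. Gad1 to Gad2 was 2.28 ± 0.156 and 2.34 ± 0.188 (exact p = 0.688), and Gabbr1 to Gabbr2 was 2.47 ± 0.280 and 2.53 ± 0.209 (exact p = 0.750). Gabrr1 to Gabrr2 stood at 1.22 on both sides (SD 0.0884 and 0.0461), and Slc6a9 to Slc6a11 at 0.785 ± 0.0343 and 0.784 ± 0.0461 (exact p = 1.00 for each). After Benjamini-Hochberg adjustment over the 5 ratios each p was 1.00.

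The second comparison asked which genes differed between the eyes of a mouse whichever the side. The differences of the 5 mice, squared, averaged and rooted, were set against the trend of all genes of like level with a one-sided F-test whose prior was fitted by limma. No member passed over all genes, where 48 of 14210 (0.338%) did. At an unadjusted p under 0.05 there were 2 of 28 members, Slc6a13 and Slc12a5, beside 669 genes (4.71%). The members' median was 0.107 log2 units against 0.131 over all genes, and 13 of 28 (46.4%) lay above the trend, against 47.9% of all genes. The members were thus spread about the trend like the table as a whole.

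**Figure D3:**
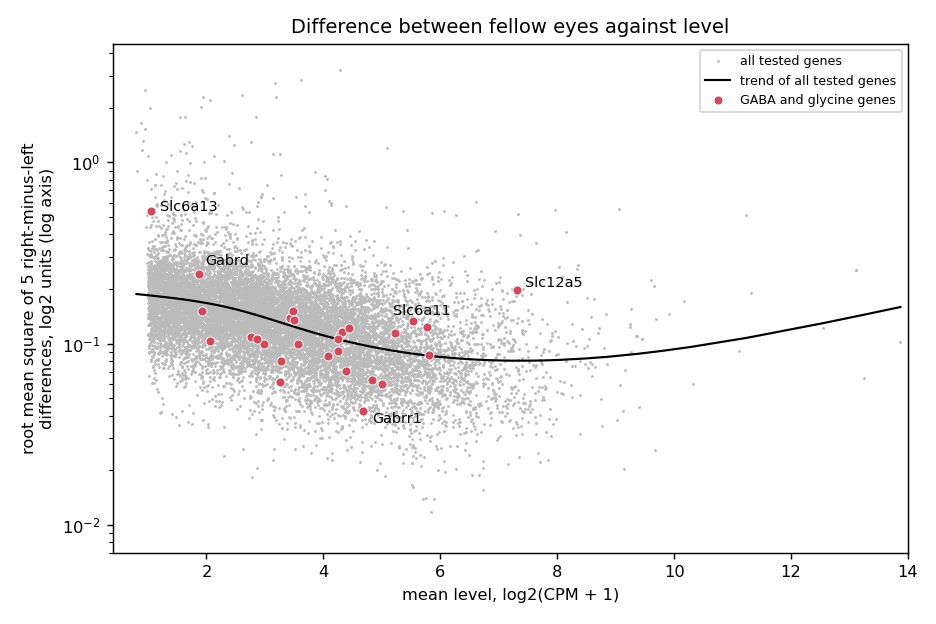
Root mean square of the differences between the eyes of the 5 mice (log2 units, log axis) against mean level for the 14210 tested genes (grey), their trend (line) and the 28 tested members (red). Slc6a13 and Slc12a5 stand farthest above the trend among the members, and Gabrr1 lies farthest below it.

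Slc6a13, which encodes the GABA and taurine transporter GAT2, was the member that varied most. It lies on chromosome 6 at bases 121300227 to 121337733 of GRCm38. In the left retinas it measured 1.74, 1.71, 0.301, 1.31 and 0.340 CPM and in the right retinas 0.679, 2.45, 1.15, 1.04 and 0.930 CPM. The left retinas of mice 65 and 68 were far below the rest and the right retina of mouse 64 above them, an 8.15-fold range in which the sides overlapped. By the step these values stood for about 28 and 32 counts in the 2 lowest libraries (95% exact Poisson intervals 0.201 to 0.437 and 0.234 to 0.482 CPM) and about 260 in the highest (2.16 to 2.77 CPM). The spread between libraries was therefore wider than counting error.

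Right minus left of Slc6a13 was −0.71, 0.35, 0.72, −0.18 and 0.53 log2 units, so that 3 mice were higher on the right and 2 on the left. Their root mean square of 0.54 was 2.93 times the trend (one-sided F-test with limma's prior, adjusted p = 0.603). The mean difference was 0.14 (SE 0.18, 95% interval −0.25 to 0.54). Without mouse 65 it was −0.004, without mice 65 and 68 it was −0.181, and with 0.1 CPM in place of 1 CPM as pseudocount it was 0.361. Without mouse 64, whose right library had damaged reads, the gene fell under the filter on low values and was not tested.

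Optc and Penk, singled out with their values known, went the same way in each mouse. Optc, whose product opticin is secreted by the ciliary epithelium, differed by −0.68, 0.35, 2.90, −0.67 and 2.56 log2 units between the eyes, and Penk, the enkephalin precursor of amacrine cells, by −0.84, 0.91, 1.28, −0.70 and 1.21. Both had the signs of Slc6a13 in 5 of 5 mice, as had 422 of 14210 genes (2.97%, Slc6a13 included). For all 3 genes the right retina of mouse 64 was the highest library, the left retina of mouse 61 the next, and the left retinas of mice 65 and 68 the lowest pair. Among the 27 other tested members only Gabrg3 had these signs (3.70%), and only Gabrd had the opposite sign in each mouse. Of the 10 amacrine markers, a list without Penk, 1 had the signs of Slc6a13 (Pax6, 10.0%). The mean difference of that list was 0.00, 0.03, 0.11, −0.02 and −0.01 log2 units.

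The whole list of 4 ciliary body and iris markers, none of them at 0 throughout, summed to 17.6 to 36.5 CPM in the left and 21.7 to 36.8 CPM in the right retinas, with the lowest sums in the left retinas of mice 65 and 68 (17.6 and 19.0 CPM). The mean right-minus-left difference of its 3 tested genes was −0.45, 0.25, 1.28, −0.13 and 1.00 log2 units, and 1 of the 3, Optc, had the signs of Slc6a13 in each mouse. This mean includes Optc, which was singled out with its values known. Col9a1 and Zic1, the other tested genes, were higher on the right in mouse 66 (0.14 and 0.13), where Slc6a13 was lower. In the other mice they had its signs. Wfdc1, the remaining marker of the list, averaged under 1 CPM and was not tested. It measured 1.13, 0.963, 0.225, 1.32 and 0.648 CPM in the left and 0.779, 1.45, 1.19, 1.06 and 1.08 CPM in the right retinas. Its values thus had the signs of Slc6a13 in each mouse. No gene of the 6 tested pigment epithelium markers, the 6 lens markers or the 5 fibroblast markers had the signs of Slc6a13 in each mouse. The part of ciliary tissue in the values of Slc6a13 was not tested. Slc6a12, the neighbouring transporter gene on chromosome 6 (bases 121343076 to 121365775), averaged 0.962 CPM and was lowest in the left retinas of mice 68 and 66 (0.765 and 0.768 CPM).

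**Figure D4:**
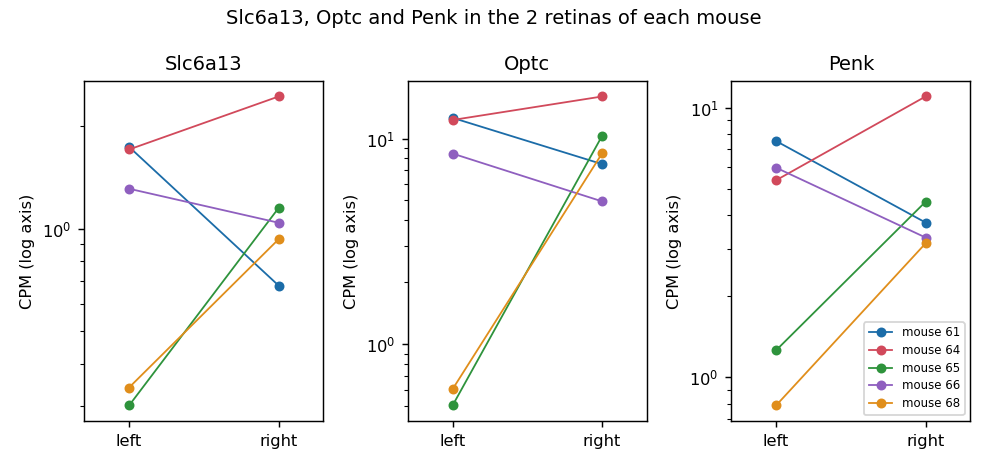
CPM (log axes) of Slc6a13, Optc and Penk in the left and right retina of each mouse, joined by a line. In each panel the lines of mice 64, 65 and 68 go up to the right and those of mice 61 and 66 go down, and the left retinas of mice 65 and 68 are the lowest points.

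Slc12a5, which encodes the neuronal chloride exporter KCC2, lies on chromosome 2 at bases 164960802 to 164999731 of GRCm38. It measured 171, 169, 148, 144 and 167 CPM in the left and 154, 145, 159, 173 and 144 CPM in the right retinas. In each mouse 1 eye was near or above 160 CPM and the other lower, and the higher eye was the left in mice 61, 64 and 68 and the right in mice 65 and 66. The differences of −0.15, −0.22, 0.11, 0.26 and −0.21 log2 units had a root mean square of 0.20, 2.44 times the trend at this level (one-sided F-test with limma's prior, adjusted p = 0.835). With libraries rescaled by median-of-ratios size factors the root mean square was 0.166, no longer under an unadjusted p of 0.05. The mean difference between sides was −0.04 (SE 0.07, 95% interval −0.19 to 0.11), and the means of the mice ranged only from 153 to 163 CPM.

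Slc6a11, next of the members in this test (limma adjusted p = 0.987), had the signs of Slc12a5 in each mouse: −0.12, −0.18, 0.12, 0.14 and −0.08 log2 units. Of the 27 other tested members, Slc6a11 and Gad1 (7.41%) shared these signs, against 2419 of all 14210 genes (17.0%, Slc12a5 included). The receptor genes Gabra3, Gabrb2, Glra3 and Glrb, 4 of the 27 (14.8%), had the opposite sign in each mouse, against 5.90% of all genes. The mean difference of the 7 rod markers had the signs of Slc12a5 (−0.12, −0.15, 0.05, 0.03 and −0.05 log2 units), as had 3 of the 7 rod genes singly, while 1 had the opposite signs. That of the 6 cone markers had them except in mouse 68 (−0.11, −0.22, 0.09, 0.17 and 0.01). The mean of the 8 ganglion cell markers was opposite in each mouse (0.02, 0.19, −0.10, −0.16 and 0.01), as were 2 of these genes singly (25.0%). The 13 mitochondrially encoded messenger RNA genes, a list added after the values were seen, also went the opposite way to Slc12a5. Their mean difference was 0.19, 0.55, −0.20, −0.23 and 0.18 log2 units, and 8 of the 13 (61.5%) had the opposite sign of Slc12a5 in each mouse. The summed CPM of all genes of the table, also looked at after the values were seen, had the signs of Slc12a5 in each mouse. It was 346696, 332076, 325431, 321661 and 329573 CPM in the left and 334460, 322042, 331746, 327419 and 324914 CPM in the right retinas. The part of these differences in the values of Slc12a5 was not tested.

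**Figure D5:**
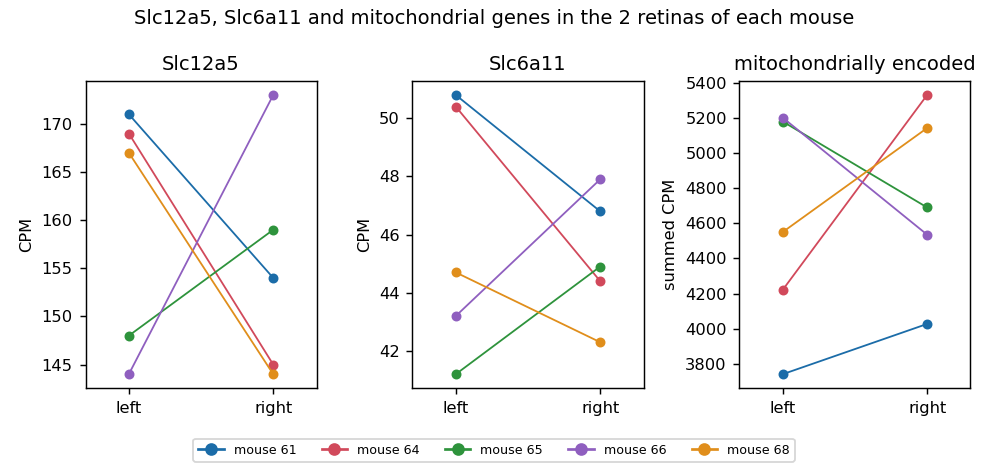
CPM of Slc12a5 and Slc6a11 and summed CPM of the 13 mitochondrially encoded genes in the left and right retina of each mouse (axes do not start at 0). Slc12a5 and Slc6a11 are lower on the right in mice 61, 64 and 68 and higher in mice 65 and 66, and the mitochondrial sum goes the other way in each mouse.

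The other end of the scale was Gabrr1, whose eyes differed by −0.08, −0.01, −0.01, 0.03 and −0.03 log2 units. Its root mean square of 0.04 was 0.434 times the trend, the lowest ratio among the members, ahead of Gabra2 at 0.469. The promoter stretches of Slc6a13, Slc12a5 and Gabrr1 are shown because these genes differed most and least between fellow eyes for their level. RefSeq has 2 further starts of Slc6a13 inside the gene, whose stretches held none of the motifs and are not shown. The sequences come from RefSeq on GRCm38.p6, plus strand, 5′ to 3′, and end before the first annotated exon base. Capitals mark matches to the motifs given after them. The windows searched reach past the ends of these stretches, and matches there are not shown. The window of the first Slc12a5 start held 1 GC box (GGGCGG), and those of the Slc6a13 start shown and of Gabrr1 held 2 each.
Slc6a13, chr6:121300038-121300226: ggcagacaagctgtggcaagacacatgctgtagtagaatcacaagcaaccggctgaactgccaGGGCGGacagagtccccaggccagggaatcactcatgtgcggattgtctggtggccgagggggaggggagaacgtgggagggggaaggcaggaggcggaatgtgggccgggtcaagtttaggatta
Slc12a5, first start, chr2:164960596-164960801: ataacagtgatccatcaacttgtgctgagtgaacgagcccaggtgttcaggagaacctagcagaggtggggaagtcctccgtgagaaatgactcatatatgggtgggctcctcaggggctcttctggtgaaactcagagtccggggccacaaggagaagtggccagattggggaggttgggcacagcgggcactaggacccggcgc
Slc12a5, inner start, chr2:164967738-164967982: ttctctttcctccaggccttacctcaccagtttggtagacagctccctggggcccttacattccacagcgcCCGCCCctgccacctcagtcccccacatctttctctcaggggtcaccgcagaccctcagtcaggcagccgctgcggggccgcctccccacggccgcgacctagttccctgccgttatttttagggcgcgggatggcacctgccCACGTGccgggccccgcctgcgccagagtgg
Gabrr1, chr4:33132306-33132520: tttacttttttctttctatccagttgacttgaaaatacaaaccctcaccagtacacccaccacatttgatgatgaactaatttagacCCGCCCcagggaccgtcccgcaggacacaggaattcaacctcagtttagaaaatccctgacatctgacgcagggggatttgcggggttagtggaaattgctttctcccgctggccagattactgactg

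Motifs were searched on both strands in windows of 300 bases (250 before and 50 after each RefSeq start), which 27 of the members had, and matches may overlap. The GC box GGGCGG was found in 17 of the 37 windows of these members (45.9%), which belong to 16 genes, and in 35.7% of all 32851 windows. The E-box CACGTG was found in 1 of the 37 (2.70%), at the inner start of Slc12a5, and in 7.15% of all windows. TATAAA was found in 5 of the 37 (13.5%), of the genes Gabra3, Gabrb2, Gad1 and Glra2, and in 13.6% of all windows. No member window held the EGR motif GCGTGGGCG (0.612% of all windows) or the CRE TGACGTCA (1.79%). The windows of the Slc12a5 starts held 63.7% and 68.3% G and C with 21 CpG each, that of Gabrr1 47.3% with 9 CpG, and the median of all windows was 52.7% with 7 CpG. These matches are letters in a window and were not tied to any measurement here.

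The third comparison asked which genes differed between mice more than between the eyes of a mouse. No member passed limma's moderated F-test over all genes, where 81 of 14210 (0.570%) did. At an unadjusted p under 0.05 there were 2 of 28 members, Gabbr2 and Slc6a13, beside 1964 genes (13.8%). The members' median range over the 5 mouse means was 0.131 log2 units against 0.206 over all genes. Mouse took a median of 47.7% of a member's sum of squares and side 4.75%, against 56.1% and 3.33% over all genes. These are raw shares, and mouse, with 5 levels against 2 for side, takes the larger one even where neither has an effect.

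Gabbr2 came nearest of the members to the threshold between mice (limma adjusted p = 0.303). In the left retinas it measured 17.3, 19.2, 19.3, 22.1 and 19.3 CPM and in the right retinas 15.7, 20.7, 19.5, 19.4 and 18.0 CPM. Both retinas of mouse 61 were lower than any other library. The mouse means spanned 0.31 log2 units, from 16.5 CPM in mouse 61 to 20.7 CPM in mouse 66, and without mouse 61 the span was 0.144 (limma adjusted p = 0.894). Mouse 61 also stood apart over the table as a whole, holding the highest mouse mean of 39.8% and the lowest of 18.9% of all tested genes, and the lowest sums of mitochondrially encoded genes (3741 and 4027 CPM, against 4221 to 5330 CPM elsewhere). The part of this in the values of Gabbr2 was not tested. Its partner Gabbr1 showed no such order, with mouse means of 54.2 to 56.5 CPM.

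Slc6a13 followed (limma adjusted p = 0.362), with mouse means from 0.635 CPM in mouse 68 to 2.08 CPM in mouse 64, a span of 0.93 log2 units. Gabra2 came next (limma adjusted p = 0.393). It measured 7.90, 8.22, 8.78, 9.87 and 8.68 CPM in the left and 7.90, 8.23, 8.09, 9.30 and 8.43 CPM in the right retinas. Both retinas of mouse 66 stood above all others and both of mouse 61 below them, and without mouse 66 the span of the mouse means dropped from 0.249 to 0.102 log2 units. The eyes of a mouse differed by at most 0.11 log2 units in Gabra2.

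Other genes of inhibitory transmission were counted in the same tests. Of 43 listed receptor partners, GABA-B auxiliary subunits, metabolic enzymes, further transporters and chloride regulators, 42 were in the table and 37 were tested. Gabrp is not analysed here, and Gabre, Gabrq, Kctd12b, Shmt1 and Slc6a12 averaged under 1 CPM. None passed in any of the 3 limma tests over all genes (lowest adjusted p 0.9996 between sides, 0.987 between fellow eyes and 0.275 between mice). At an unadjusted p under 0.05 there were 0, 0 and 5 of the 37 (the backgrounds are 2.34%, 4.71% and 13.8%). Their median right-minus-left difference was −0.004 log2 units, with 14 higher and 23 lower on the right, and their median range over the mouse means was 0.184.

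Nearest of these genes to the threshold between mice was Dag1, which encodes dystroglycan, a partner of dystrophin at inhibitory synapses (limma adjusted p = 0.275). Its mouse means were 10.6, 12.8, 12.8, 13.2 and 12.8 CPM, lowest in mouse 61 as for Gabbr2. Gabarapl1, of the family of GABA-A receptor-associated proteins that serves autophagy, averaged 77.1, 75.3, 70.6, 74.3 and 66.5 CPM (limma adjusted p = 0.329). Gldc, the glycine decarboxylase of the glycine cleavage system, averaged 9.43, 9.78, 8.11, 7.90 and 7.47 CPM (limma adjusted p = 0.339).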

How the data were processed

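Total RNA of 10 retinas was sequenced after ribosomal RNA depletion with a strand-specific kit, per the labels' protocols. The submitters' processing notes name STAR, Partek and GRCm38 (mm10). Neither versions nor the counting rule is given in the sources used here. The deposited values are CPM, with 0.0001 added by the authors, a unit read from the values: 90.9% to 91.7% of low values were whole multiples of 1 step (tolerance 0.1), too few for a count test.

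From these, log2(CPM + 1) of the 14210 genes averaging at least 1 CPM entered limma 3.58.1 (R 4.3.3), fitted with an intensity trend, Benjamini-Hochberg adjustment and a threshold of 0.05, after a trial on simulated data. The left and right retina of a number come from the same mouse; the deviations of a pair correlated at 0.607, 0.143, 0.166, 0.172 and 0.311. Lengths are from GENCODE M21. Members and lists were chosen with earlier results of these data known. Every member is accounted for by name. Values in each library are given for the 3 lowest p of each test and for the member highest per length in each role. Alternatives covered pseudocount, filter, scaling, the mouse block and each mouse left out. A few genes of the same families are not reported here.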

Additional observations from a re-analysis of the deposited data

Results flagged for a closer look

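Gad2, the smaller of the GABA-synthesising enzymes by level, had 1 left library apart from the rest. The left retina of mouse 64 measured 16.7 CPM, while the other 4 left retinas lay between 17.8 and 18.3 CPM. Its gap to the nearest of them was 0.712 of the group's range, just past Dixon's critical value of 0.71 for 5 libraries. It was the 1 such case in 60 groups examined (30 genes, 2 sides), where chance gives about 1 in 20.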

How the results depend on the processing

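No member passed any of the 3 tests under any alternative (pseudocounts of 0.1 and 5 CPM, no filter, a filter at 5 CPM, median-of-ratios scaling, each mouse left out, and mice 65 and 68 left out together, which was chosen after seeing the data). The lowest adjusted p of a member over these was 0.985 between sides, 0.408 between fellow eyes and 0.201 between mice. With no replicate block for the paired retinas 0 members were called between sides. Over all genes the calls between fellow eyes ranged from 4 (mice 65 and 68 left out together) to 54, and between mice from 23 (without mouse 61) to 93. The sign of the difference between sides is not settled for members near 0. Without mice 65 and 68 it turned for Gabra4 (0.022), Gabrb1 (−0.030), Gabrg1 (0.030), Gabrg3 (−0.030) and Slc6a13 (−0.181). Leaving out 1 mouse gave ranges that cross 0 for Gabra3 (−0.008 to 0.084), Gabra4 (−0.062 to 0.008), Gabrb1 (−0.036 to 0.076), Gabrb2 (−0.018 to 0.043), Gabrg3 (−0.016 to 0.041), Gabrd (−0.132 to 0.049), Gabrr2 (−0.065 to 0.015), Gabbr1 (−0.051 to 0.009), Glra2 (−0.025 to 0.038), Glrb (−0.013 to 0.038), Gad2 (−0.011 to 0.049), Slc6a9 (−0.053 to 0.013), Slc6a11 (−0.063 to 0.018), Slc6a13 (−0.004 to 0.354) and Slc12a5 (−0.118 to 0.002), in log2 units. The cause was not tested. Without mouse 64 Slc6a13 could not be fitted. Median-of-ratios scaling moved the median difference of all genes by −0.003. Depth limits Gabra5, at 12 to 29 counts a library.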
